A study of Avicennia germinans with 18 samples.

Results

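Leaves were compared with roots of the same seedlings of the mangrove Avicennia germinans, a tree whose leaves secrete salt. The seedlings came from a forest that the labels call arid. The members were the 3 leaf libraries and the 3 root libraries of arid seedlings 1, 2 and 3, 6 of the 18 libraries of the series, paired by the seedling number and read over all 47821 transcripts of the deposited count table. The other 12 libraries were arid stems and the leaves, stems and roots of 3 seedlings from a humid forest, and they entered the model as well. According to the series' design text, the forests contrasted in freshwater, salt, sunlight and temperature. Seedlings of both forests had germinated in the field and were kept for 72 hours, shaded and watered, in 3 L pots of mangrove soil before harvest. All libraries thus come from potted plants, and no genotype or age is given beyond the seedling stage.

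Leaves fix carbon and hold chloroplasts, and in Avicennia they carry glands that secrete salt. Roots take up water and ions, keep out much of the salt at inner barrier layers, and do not photosynthesise in soil. Transcripts of photosynthesis genes are known to be abundant in plant leaves and scarce in buried roots, while those of ion transporters and of cell wall barriers are often root-enriched. The identifiers in these data, however, are not paired with gene names, so no transcript below is given a function and no known leaf or root marker could be looked up. Identifiers beginning with non_cod form a class that the submitters set apart by this prefix.

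The 6 libraries held between 7.42 and 18.2 M reads (M for mega), and a count of 0 in 1 library allowed a level of up to 0.174 to 0.388 CPM, which is 3 counts. CPM are counts per mega reads after scaling of the library sizes. Since the organs could not be checked against named markers, they were checked against transcripts set in the humid seedlings, which share no library with the arid ones. A leaf-typical list held 251 transcripts that averaged 50 CPM or more in humid leaves and were 20-fold or more below that in humid roots. The median over this list was 118, 140 and 179 CPM in arid leaves 1, 2 and 3, against 63.5, 3.02 and 18.8 CPM in arid roots 1, 2 and 3. All leaves lay above all roots, and the roots differed widely: arid root 1 held these transcripts at a median of 52.8% of the level in its own leaf, arid root 3 at 11.5% and arid root 2 at 2.05%. A root-typical list, defined the other way round, held 103 transcripts. Its median was 1.81, 2.28 and 0.405 CPM in arid leaves 1, 2 and 3, against 15, 54.7 and 20.6 CPM in arid roots 1, 2 and 3. All arid roots lay above all arid leaves in that list, and arid root 2 was the highest. In the leaf-typical list arid root 1 thus stood apart from the other roots towards leaf levels. In the root-typical list arid roots 1 and 3 lay close together, and arid root 2 stood apart from both. Barcodes recur across library sets in the labels, and these do not say which libraries were sequenced together, so pool and organ cannot be told apart if pools followed organs. In bulk tissue a change in the number of cells of a type and a change in the RNA per cell cannot be told apart. The part of arid root 1 in the results below is shown by leaving it out.

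**Figure D1:**
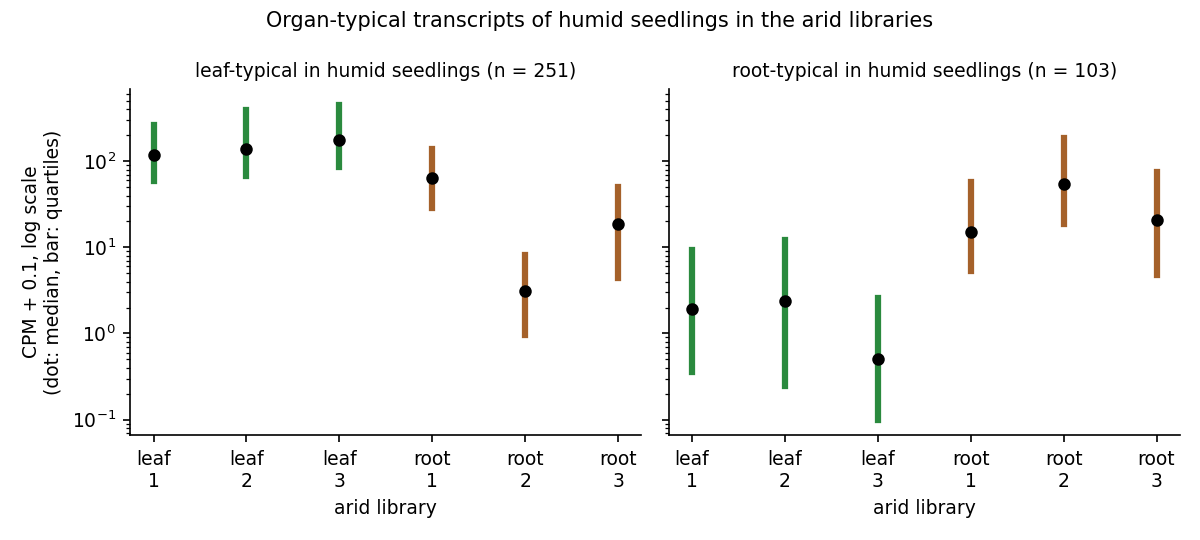
Levels of transcripts set as leaf-typical (251) or root-typical (103) in humid seedlings, in each arid leaf (green) and arid root (brown) library, as CPM + 0.1 on a log axis. Dots are medians and bars run between the quartiles over transcripts. The leaf-typical median is 63.5 CPM in arid root 1 and 3.02 CPM in arid root 2.

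In arid seedlings 2692 of 40897 tested transcripts differed between leaf and root, which is 6.58% (edgeR quasi-likelihood test with the seedling as a block, Benjamini-Hochberg adjusted p under 0.05). Of these, 1497 (3.66% of those tested) were higher in leaf and 1195 (2.92%) were lower in leaf. Which side was larger depended on the scaling and on the libraries in the fit. Of 16 alternatives 9 gave more transcripts higher and 7 gave more transcripts lower in leaf. The 7 were another scaling of the library sizes and fits that left out libraries. An unadjusted p under 0.05 was found for 8534 transcripts (20.9%). The median log2 fold change of leaf over root was 2.51 for the transcripts called higher, with quartiles of 1.73 and 4.03, and -2.90 for those called lower, with quartiles of -4.57 and -1.91. Over all tested transcripts the median was 0.00. Fold changes of at least 16-fold were found for 382 of the 1497 and for 386 of the 1195, and of at least 64-fold for 185 and 166. The direction was the same in all 3 seedlings for 1482 of the 1497 and for 1190 of the 1195. The 3 leaf libraries lay wholly above the 3 root libraries for 1430 of the 1497, against 13.9% of all tested transcripts, and wholly below them for 1103 of the 1195, against 12.6% of all. The call used the same values, so these last counts describe the calls and add no separate evidence.

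The number of calls rested on the model and on single libraries. Without the seedling block 1438 transcripts were called, 780 higher and 658 lower in leaf, and DESeq2 called 5752, 3012 higher and 2740 lower. A fit of the leaf and root libraries of both forests called 936, 435 higher and 501 lower, and a fit of the 6 arid libraries alone called 233, 109 higher and 124 lower. Without arid leaf 2 the count was 906, 465 higher and 441 lower, and without arid leaf 3 it was 780, 459 higher and 321 lower. Without arid root 2 it was 955, 389 higher and 566 lower, and without arid root 3 it was 519, 185 higher and 334 lower. The lower transcripts were thus the more numerous in both fits without the stems and without arid root 2 or arid root 3. Without arid root 1 the count was 2549, with 1618 higher and 931 lower in leaf.

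**Figure D2:**
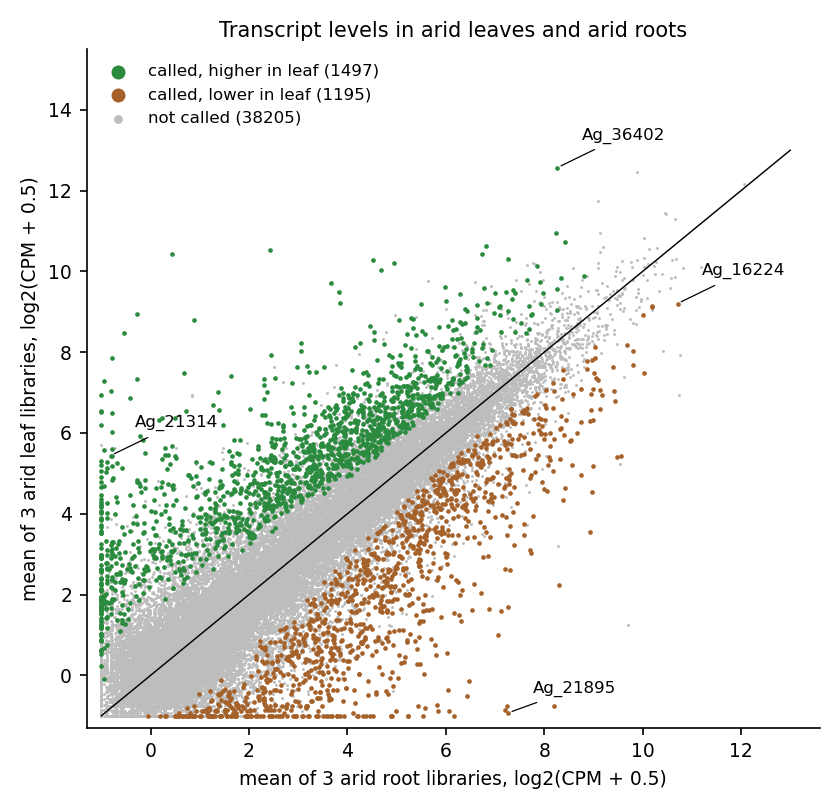
Mean level of each of 40897 tested transcripts in the 3 arid leaf libraries (vertical) against the 3 arid root libraries (horizontal), as log2(CPM + 0.5). Green points were called higher in leaf (1497), brown points lower in leaf (1195), grey points were not called, and the line marks equal levels. The 4 transcripts named in the text are labelled.

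The transcripts called were mostly well expressed in their higher organ. Those called higher in leaf had a median of 40.6 CPM in arid leaves and 8.43 CPM in arid roots, and those called lower had 3.49 CPM in arid leaves and 26.0 CPM in arid roots. Together the 1497 took 11.2%, 11.8% and 14.9% of all reads in arid leaves 1, 2 and 3, against 4.52%, 1.77% and 2.93% in arid roots 1, 2 and 3. The 1195 took 2.20%, 2.18% and 1.46% of the reads in arid leaves 1, 2 and 3, against 7.32%, 9.10% and 8.39% in arid roots 1, 2 and 3. Both shares separated the organs without overlap, as the choice of these transcripts brings about, and arid root 1 was the root nearest to the leaves in both.

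The share of transcripts called was higher at higher levels. Calls made up 0.89% of transcripts whose mean over the 6 libraries was under 1 CPM, 4.76% from 1 to 10 CPM, 11% from 10 to 100 CPM and 14.6% at 100 CPM or more. A missing call mostly left a wide range of differences possible. The 95% interval of the log2 fold change lay within -1 and 1, a difference of under 2-fold either way, for 6096 of the 38205 transcripts that were not called. At 100 CPM or more this held for 46.6% of the transcripts not called, and from 1 to 10 CPM for 2.04%. Among the 100 most abundant transcripts of arid leaves 26 were called higher in leaf and none lower. Among the 100 most abundant of arid roots 13 were called lower in leaf and none higher. Picking by the level in 1 organ favours that organ, so these counts are descriptive. The organs had 46 of their 100 most abundant transcripts in common, and none of the 46 was called, beside the 14.6% at 100 CPM or more. Picking by a high level in both organs favours similar levels, so this count is descriptive too. The prefix non_cod was carried by 13289 of the tested transcripts, of which 168 (1.26%) were called higher and 176 (1.32%) lower in leaf. Of the 27608 others, 1329 (4.81%) were called higher and 1019 (3.69%) lower. The prefix was carried by 32.5% of the tested transcripts, while reads on it averaged 8.57% in arid leaves and 8.81% in arid roots. The part that level has in these shares of calls was not tested.

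Some called transcripts were read in leaf or in root but not in the other, with stems left aside. A transcript with 0 reads in a group can pass the filter only through other groups. The counts here are therefore descriptive, and no share of all tested transcripts is given beside them. Of the 1497 called higher in leaf, 96 had 0 reads in all 3 arid roots, and of the 1195 called lower, 99 had 0 reads in all 3 arid leaves. Taken over the 3 libraries of an organ, 3 counts correspond to 0.083 CPM in leaves and 0.0857 CPM in roots. Against these limits the 96 were at least 7.84-fold to at least 1433-fold higher in leaf, with a median bound of 49.7. The 99 were at least 5.57-fold to at least 862-fold lower in leaf, with a median bound of 41.2. With these transcripts at their bounds, the median log2 fold change stayed at 2.51 for those called higher in leaf, and its size for those called lower was 2.89.

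Since the identifiers are not paired with gene names, 4 transcripts are given by identifier, in each direction the one with the smallest adjusted p and the most abundant one among the calls without overlap. Ag_21314 had 16.8, 28.3 and 83.7 CPM in arid leaves 1, 2 and 3, against 0, 0 and 0.207 CPM in arid roots 1, 2 and 3. All leaves were high and the roots together held 2 reads, against 1754 in the leaves. The pooled ratio of leaf over root was 849, with an exact 95% interval from 235 to 7017 that covers counting error only (edgeR adjusted p 0.000725, higher in leaf in 3 of 3 seedlings). Arid leaf 3 held 1239 of the 1754 leaf reads, and without it, an alternative chosen after seeing the data, the ratio was 422 (exact 95% interval 116 to 3497). The arid stems 1, 2 and 3 had 3.69, 13.3 and 43.8 CPM, in the same order as their leaves.

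Ag_36402 was the most abundant transcript of the arid leaves by its mean. It had 4184, 5477 and 8574 CPM in arid leaves 1, 2 and 3, against 806, 3.89 and 111 CPM in arid roots 1, 2 and 3. The organs did not overlap, and the roots differed among themselves by more than the leaves did, in the order shown by the leaf-typical list. The means were 6078 ± 2256 CPM in leaves and 307 ± 436 CPM in roots (SD, n = 3 each). Leaf over root was 5.81 on the log2 scale (SE 1.25, edgeR adjusted p 0.0173) and became 7.76 without arid root 1 (edgeR adjusted p 0.00258). Over all alternatives it lay between 4.10 and 8.09, and the adjusted p, between 2.62e-09 and 0.172, exceeded 0.05 without arid leaf 3, without arid root 3, without seedling 3 and in both fits that left out the stems.

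Of the transcripts lower in leaf, Ag_21895 had 0, 0.0735 and 0 CPM in arid leaves 1, 2 and 3, against 18.6, 426 and 15.7 CPM in arid roots 1, 2 and 3. It was nearly unread in leaves, with 1 read in all, and high in every root, most of all in arid root 2. The pooled ratio of root over leaf was 7895, with an exact 95% interval from 1417 to 311881 for counting error only (edgeR adjusted p 9.6e-06, lower in leaf in 3 of 3 seedlings). Arid root 2 alone held 7342 of the 7644 root reads behind this ratio. Without it, again chosen after seeing the data, the ratio was 615 (exact 95% interval 109 to 24357). The stems of these seedlings had 0, 0.489 and 0 CPM.

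Ag_16224 was the most abundant of the lower transcripts. It had 458, 775 and 535 CPM in arid leaves 1, 2 and 3, against 1672, 1431 and 1917 CPM in arid roots 1, 2 and 3. Every root lay above every leaf, although the transcript was abundant in both organs, ranking 133 by its mean in leaves and 6 in roots. Means were 589 ± 166 CPM in leaves and 1673 ± 243 CPM in roots (SD, n = 3 each), and leaf over root was -1.56 on the log2 scale (SE 0.31, edgeR adjusted p 0.0124). The adjusted p was between 1.15e-06 and 0.12 over all alternatives and exceeded 0.05 without arid leaf 3, without arid root 3, without seedling 3 and with the 6 arid libraries alone.

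**Figure D3:**
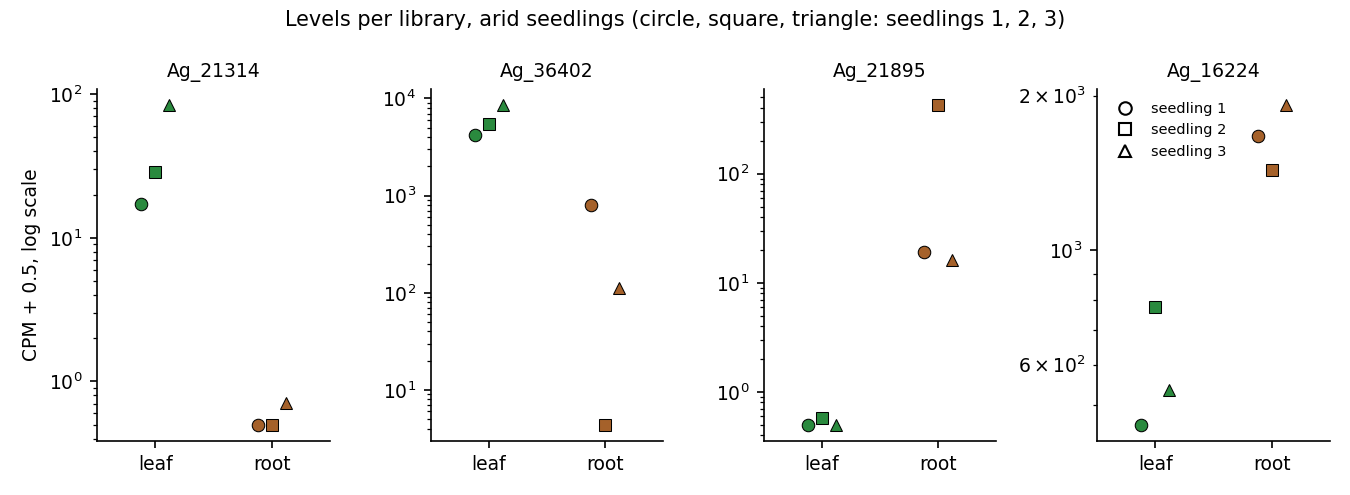
Level of 4 transcripts in each arid leaf (green) and arid root (brown) library, as CPM + 0.5 on log axes whose ranges differ between panels. Circles, squares and triangles are seedlings 1, 2 and 3. Leaf and root libraries do not overlap in any panel, and arid root 1 lies highest among the roots for Ag_36402 with 806 CPM.

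The difference between the organs was not equally wide in the 3 seedlings. Over all tested transcripts seedling 1 had the smallest median absolute log2 difference, 0.575, against 0.605 and 0.67 in seedlings 2 and 3. For the transcripts called higher in leaf, the median of leaf minus root on the log2(CPM + 0.5) scale was 1.35 in arid seedling 1, 2.64 in arid seedling 2 and 2.48 in arid seedling 3. Seedling 1 had the smallest difference of the 3 for 1143 of the 1497, and arid root 1 was the highest root library for 1034 of them (69.1%), against 35.3% of all tested transcripts. Arid leaf 3 was the highest leaf for 956 of the 1497 (63.9%), against 36.6% of all tested. For the transcripts called lower in leaf the medians were -1.96, -2.37 and -2.62 in seedlings 1, 2 and 3. Seedling 1 again had the smallest difference most often, for 618 of 1195. Arid root 2 was the highest root for 625 of these (52.3%), against 35.9% of all tested transcripts, and arid leaf 3 was the highest leaf for 169 of them (14.1%), against the 36.6% given above.

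Without regard to calls, 1124 transcripts were at least 4-fold higher in leaf in seedling 1, 2498 in seedling 2 and 2544 in seedling 3, and 357 in all 3. A further 971 were so in seedlings 2 and 3 and not in seedling 1, against 156 that lacked only seedling 2 and 94 that lacked only seedling 3. At least 4-fold lower in leaf were 1510, 2045 and 2076 transcripts in seedlings 1, 2 and 3, and 434 in all 3. Those that lacked only seedling 1 numbered 462, only seedling 2 269 and only seedling 3 142. Opposite directions of at least 4-fold in different seedlings were found for 97 transcripts. Of the transcripts at least 4-fold different in all 3 seedlings, 318 of 357 and 382 of 434 were called, beside 6.58% of all tested. They were picked by the same values that the test used, so these counts are descriptive.

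**Figure D4:**
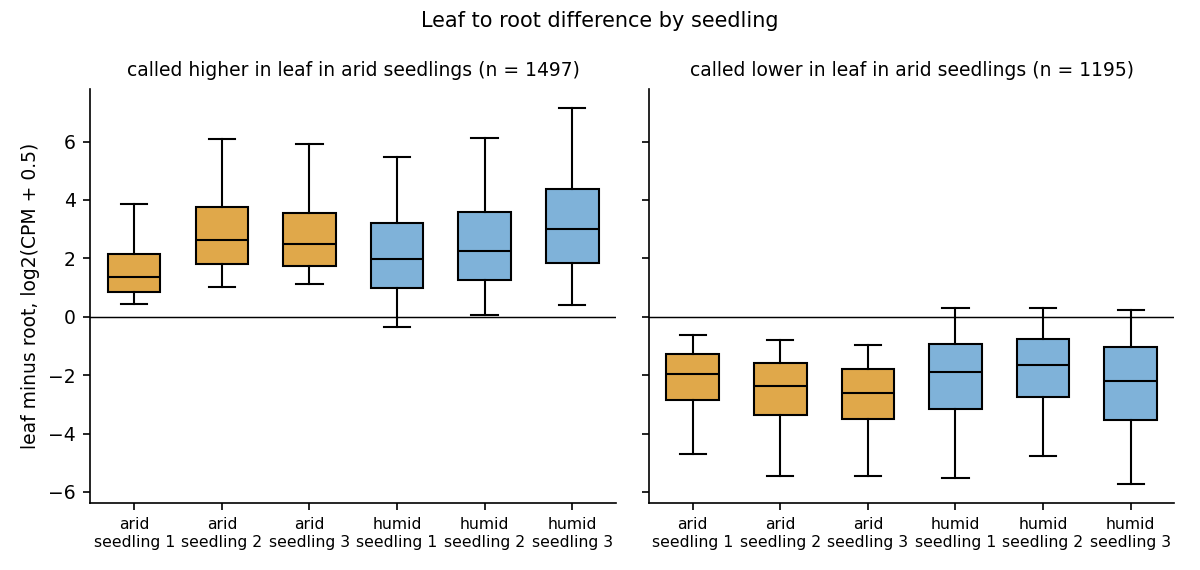
Leaf minus root on the log2(CPM + 0.5) scale in each seedling, for transcripts called higher (1497) or lower (1195) in leaf in the arid seedlings. Orange boxes are arid and blue boxes humid seedlings, with median, quartiles and whiskers from the 5th to the 95th percentile over transcripts. Among the arid seedlings the median for the higher transcripts is 1.35 in seedling 1, against 2.64 and 2.48 in seedlings 2 and 3.

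The lists set in humid seedlings were read in the test of the arid seedlings, whose fold changes used no humid counts. The humid libraries did help to set the filter, the scaling and the spread behind the calls. Of the 251 leaf-typical transcripts 135 (53.8%) were called higher in arid leaf and 0 lower, beside 3.66% of all tested transcripts called higher, and 244 had a higher estimate in leaf. Their median log2 fold change of leaf over root was 3.05 in arid seedlings. In humid seedlings, where the list was set, it was 6.78. Of the 103 root-typical transcripts 70 (68%) were called lower in arid leaf and 0 higher, beside 2.92% of all called lower. Their median was -4.04 in arid and -5.74 in humid seedlings. Calls over all tested transcripts changed with the setting too and are given beside those of the lists. Without the seedling block the calls were 53 of the 251 and 41 of the 103, beside 780 higher and 658 lower of 40897 tested. Without arid root 1 they were 196 and 58, beside 1618 and 931 of 43303. With the 6 arid libraries alone they were 8 and 15, beside 109 and 124 of 34152. They were 59 and 35 without arid leaf 2 (465 and 441 of 42741) and 49 and 29 without arid leaf 3 (459 and 321 of 42636). Without arid root 2 they were 50 and 44 (389 and 566 of 42614), and without arid root 3 17 and 31 (185 and 334 of 43317).

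The same contrast in humid seedlings shares no library with the arid one and is set beside it. Counts of calls in each forest do not test a difference between the forests, and that test is given further below. In humid seedlings 5915 transcripts (14.5%) were called, 3606 (8.82%) higher and 2309 (5.65%) lower in leaf, and 27.5% of all had an unadjusted p under 0.05. The humid count was 3241 without humid leaf 3, 3049 without humid root 3, 4016 to 4104 without each of the other humid leaves and roots, and 8791 by DESeq2. Of the 1497 called higher in arid leaf 1155 were also called higher in humid leaf, 1 was called lower, and 1464 had a positive humid log2 fold change. Of the 1195 called lower in arid leaf 734 were also called lower in humid leaf, 1 was called higher, and 1136 had a negative humid log2 fold change. Together the 1889 shared calls made up 70.2% of the arid and 31.9% of the humid calls, and both shares rest on the counts as first given. The humid libraries gave no counts to the arid fold changes, but they shared in the filter, the scaling and the estimate of spread. In them the leaves lay wholly above the roots for 1222 of the 1497, against 18.5% of all tested transcripts, and wholly below them for 857 of the 1195, against 14.8% of all.

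The estimates themselves were not of equal size. The transcripts called higher in arid leaf had a median log2 fold change of 2.51 in arid and 2.90 in humid seedlings, although being called in arid favours the arid value. Those called lower had -2.90 in arid and -2.19 in humid seedlings. In the transcripts called higher in humid leaf the medians were 1.37 in arid and 2.75 in humid seedlings, and in those called lower -1.57 in arid and -2.73 in humid seedlings, where being called in humid favours the humid value. Whether the organ difference itself differed between the forests was tested in the same model. No transcript was called by edgeR, the smallest adjusted p being 0.0541. An unadjusted p under 0.05 was found for 3589 transcripts (8.78%), with 1273 (3.11%) higher and 2316 (5.66%) lower in arid than in humid seedlings, and DESeq2 called 886, 279 higher and 607 lower. edgeR called 178 without arid leaf 2 and 191 without arid root 2, of which 155 and 175 were lower in arid. For Ag_36402, at 3864 ± 1927 CPM in humid leaves and 1.39 ± 0.547 CPM in humid roots (SD, n = 3 each), the arid minus humid difference was -5.46 on the log2 scale (SE 1.64, edgeR adjusted p 0.292).

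Stems of the same arid seedlings were not part of the contrast, although they helped to estimate its spread and, through the seedling block, its fold changes. For Ag_36402 leaf over root was 5.81 on the log2 scale as reported, and 6.28 in the fit of leaf and root libraries of both forests. The stem positions below are thus not independent of the calls. For the transcripts called higher in leaf, the mean stem level on the log2(CPM + 0.5) scale lay between those of leaf and root for 1333 of 1497, above both for 115 and below both for 49. It was nearer to leaf than to root for 955 (63.8%). For the transcripts called lower in leaf it lay between the organs for 1015 of 1195, above both for 58 and below both for 122, and nearer to leaf for 718 (60.1%). The 1497 took 8.26%, 6.04% and 8.53% of the reads in arid stems 1, 2 and 3, within the gap between the leaf and root shares given above. The leaf-typical list had medians of 92.3, 30.5 and 78.5 CPM in arid stems 1, 2 and 3, where stem 2 was lowest, as root 2 was among the roots.

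**Figure D5:**
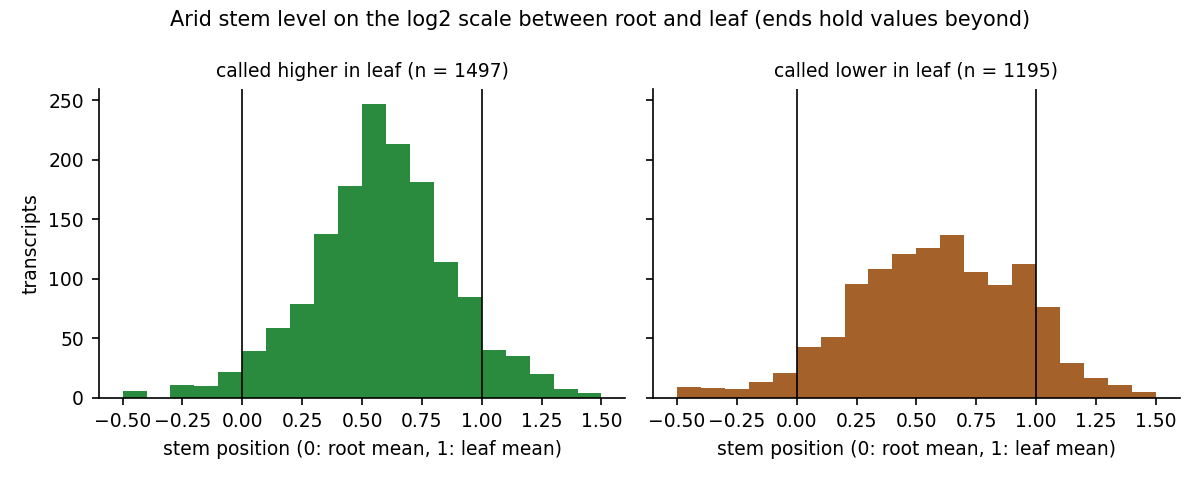
Position of the mean arid stem level between the arid root mean (0) and the arid leaf mean (1) on the log2(CPM + 0.5) scale, for transcripts called higher (left) or lower (right) in leaf. Bars count transcripts, and the first and last bars also hold values beyond the axis. The stem mean lies between the organs for 1333 of 1497 and 1015 of 1195 transcripts.

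The make-up of the libraries was compared between the organs in 3 measures. The 100 most abundant transcripts of a library took 10.1%, 13.5% and 12.8% of the reads in arid leaves 1, 2 and 3, against 9.81%, 11.8% and 10.9% in arid roots 1, 2 and 3. The leaf was higher in each seedling, while the ranges of the organs overlapped. Transcripts at 1 CPM or more, without scaling, numbered 31308, 29716 and 30293 in arid leaves 1, 2 and 3, against 31897, 30890 and 31967 in arid roots 1, 2 and 3. The leaf was lower in each seedling, and again the ranges overlapped. For both measures the exact two-sided sign-flip permutation p over 3 seedlings was 0.25, the smallest that 3 pairs allow, and 0.375 after adjustment over the 3 measures. Reads on transcripts with the prefix non_cod were 8.57 ± 0.404% in leaves and 8.81 ± 0.458% in roots (SD, n = 3 each, exact permutation p 0.75), which differed by less than the spread between libraries.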

How the data were processed

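The authors deposited raw counts of uniquely mapped reads per transcript, without normalization, in a table of all libraries and in a file per library, per the file headers and names. The values of both were equal. Bowtie 0.12.2 and edgeR are named in the submitters' processing notes, without their role. Of the counting program and the reference transcriptome nothing is stated in these sources, so reads shared by near copies of a transcript could not be assessed. Per the labels' protocols, 0.5 µg of total RNA went into each library (Illumina TruSeq kit).

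All 18 libraries entered 1 quasi-likelihood model of edgeR 4.0.16 (R 4.3.3) on the counts, with trimmed mean of M-values scaling, a mean for each group and the seedling within its forest as a block (8 residual degrees of freedom). The filter by group (minimum count 10, minimum total 15) left 40897 transcripts, which held at least 99.7% of the reads of the 6 arid leaf and root libraries. The block rests on the series' design text, which takes the organs from the same seedlings. Deviations of log2 CPM from the group means correlated with r of 0.225, 0.23 and 0.259 between leaf and root of arid seedlings 1, 2 and 3, and with r from -0.182 to -0.07 between different seedlings. Deviations from a group mean cancel within the group, so the negative r follow from the positive ones and add no separate evidence. Counts of replicate libraries differed by more than sampling noise, with chi-square per degree of freedom of at least 25.3. SE were taken as the fold change over the root of the F statistic. DESeq2 1.42.0 served as an alternative, with scipy 1.17.1 for exact tests and matplotlib 3.10.9 for plots. The procedure was run on simulated counts with changes in arid leaf only and no seedling effects. That setting is simpler than these data, so the run does not bear on the counts of calls. Intervals and limits for a count of 0 cover counting error only.

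The members, the lists and the tests were chosen with earlier results of these data known. Named transcripts were, in each direction among the calls without overlap, the one with the smallest adjusted p and the one with the highest mean CPM in its higher organ. Ratios to the own organ in the organ-typical lists used a pseudocount of 0.1 CPM, and differences by seedling used 0.5 CPM. The labels name separate seedlings. With the seedling as a block, edgeR p-values set the mean organ difference against the spread left after group means and seedlings are fitted. That spread was estimated over all 18 libraries, stems and humid seedlings included.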

Additional observations from a re-analysis of the deposited data

How the results depend on the processing

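Counts of transcripts called are by edgeR unless DESeq2 is named. For arid leaf against arid root the count was 2692 as reported. It was 1438 without the seedling as a replicate block, 5752 by DESeq2, 936 with leaf and root libraries only and 233 with the 6 arid libraries only, which have fewer samples to estimate the spread. It ranged from 519 to 2549 when single libraries were left out and was 2650, 691 and 186 without all libraries of arid seedling 1, 2 and 3. DESeq2 size factors, upper quartile scaling and no filter on low counts gave 2798, 2819 and 2541. More transcripts were lower than higher in leaf under 7 alternatives. These were upper quartile scaling (1332 higher, 1487 lower), leaf and root libraries only (435, 501), arid libraries only (109, 124), and the fits without arid root 2 (389, 566), arid root 3 (185, 334), seedling 2 (279, 412) or seedling 3 (53, 133). Upper quartile scaling put the median of all log2 fold changes at -0.11, against 0.00 as reported. In no alternative did a transcript called as reported change its sign. The seedling block changed no call of a named transcript. For the arid minus humid difference, where 0 were called, DESeq2 gave 886, DESeq2 size factors 16, upper quartile scaling 21, no filter 13, and leaving out single libraries 0 to 191. The humid count of 5915 ranged from 3049 to 4104 without single libraries and was 8791 by DESeq2. The pooled ratio of Ag_21895, root over leaf, was 615 without arid root 2, against 7895. The percent of reads on non_cod transcripts, leaf minus root, was -0.238 percentage points, 0.0025 without the 100 most abundant transcripts of each library, and from -0.681 to 0.16 without single seedlings. The cause of these changes was not tested. Depth limits calls of transcripts with few reads.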

Other observations

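For called transcripts, the ratio of the highest to the lowest replicate library was wider in the lower organ. Counts are fewer there, and the part of counting noise in this measure was not tested. For the 1497 transcripts higher in arid leaf, the highest of the 3 libraries exceeded the lowest by a median of 1.97-fold among leaves and 2.25-fold among roots, with 0.5 CPM added. For the 1195 lower in arid leaf the medians were 2.18-fold among leaves and 1.98-fold among roots. Over all tested transcripts they were 1.87-fold among leaves and 1.83-fold among roots.

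The root-typical list of humid seedlings stood at a median of 14.1%, 47.6% and 18.9% of its humid root mean in arid roots 1, 2 and 3. The leaf-typical list stood at 87.4%, 111% and 143% of its humid leaf mean in arid leaves 1, 2 and 3. The lists were chosen to be high in the humid organ, so values under 100% are favoured in the arid one.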
